A study of Medicago ruthenica with 3 samples.

Results

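The auxin receptors AFB2 and TIR1 were followed through the degradome of *Medicago ruthenica* leaves, a perennial forage legume that tolerates drought. All entries of the deposited table whose gene symbol was AFB2 or TIR1, or whose annotation named an AUXIN SIGNALING F-BOX protein or TRANSPORT INHIBITOR RESPONSE 1, were taken, whatever small RNA they were listed with. This gave 5 of the 11390 entries of the table, on 3 of its 6912 transcripts. AFB2 was 1 transcript (TRINITY_DN24362_c0_g1) and TIR1 was 2 (TRINITY_DN21628_c1_g1 and TRINITY_DN25276_c1_g1), each annotated by its best match in *Medicago truncatula*. Of the 5 entries 2 belonged to miR393 and 3 to other small RNAs.

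Leaves came from plants that were 4 weeks old when the treatments began. RW plants went without water for 15 days and were collected 2 days after water was given back, DS plants were collected at the end of the same 15 days, when relative soil moisture was 20%, and CK plants were kept watered, at more than 80%. The species, starting age, pots and growth conditions were shared by all groups, and no group carried a transgene or a mutation. CK leaves were collected on day 15, as DS leaves were. RW leaves were thus 2 days older and from another day, which cannot be told apart from the rewatering. The labels speak of replicate plants, but there was 1 degradome library per condition, and whether it pooled plants is not given in the sources used here. Every test below therefore compares 2 libraries, not 2 conditions, and none of the differences has a replicate check.

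Degradome sequencing reads the 5′ ends of RNA that has a poly(A) tail but no cap, a form left after a microRNA (miRNA) has guided the cutting of a transcript, although other routes of decay leave such ends too. TIR1 and the AFB proteins are F-box proteins, the substrate-binding subunits of SCF ubiquitin ligases. Auxin is bound in a pocket of the receptor and holds an Aux/IAA repressor against it, the repressor is marked for destruction, and the auxin response factors (ARF) that it had held back can act on their target genes. miR393 pairs with the transcripts of these receptors in many flowering plants and guides their cutting, and it is known as a brake on auxin perception in leaves and roots.

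Values are RPM, reads per 1000000 reads of the deposited table, and the whole reads behind them. The table held 29617 reads in RW, 32719 in DS and 24790 in CK, so that 1 read was worth 33.8 RPM in RW, 30.6 in DS and 40.3 in CK. These reads were 0.209% of the mapped reads in RW, 0.197% in DS and 0.136% in CK. A ratio between libraries is thus a ratio of shares of the listed entries and moves when other listed entries move. Intervals are exact 95% intervals and cover counting error only, since there was 1 library per condition. The reads carry no molecular identifiers, so PCR copies count as separate reads. Where copies are present, intervals and p-values are too narrow even for counting error.

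The AFB2 entry listed with miR393 was the deepest signal on the receptors by far. The entry of mtr-miR393a_R+1 on AFB2 held 1898 reads (64085 RPM, 61234 to 67034) in RW, 926 reads (28302 RPM, 26508 to 30185) in DS and 1990 reads (80274 RPM, 76786 to 83880) in CK. DS was the low library and its interval stood apart from both others, while RW lay below CK on this scale. The RNA came from whole leaves and transcript levels were not used here, so fewer cells of a type, less RNA per cell and less cutting per transcript cannot be told apart. Summed by miRNA family and transcript, the table had 10350 pairs, and miR393 on AFB2 ranked 1 in RW, 2 in DS and 1 in CK. The pair above it in DS was miR169 on an unannotated transcript (TRINITY_DN22919_c0_g2), with 1298 reads there.

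The same small RNA gave a much shallower signal on TIR1. mtr-miR393a_R+1 on TIR1 (TRINITY_DN21628_c1_g1) had 39 reads (1317 RPM, 936 to 1800) in RW, 38 reads (1161 RPM, 822 to 1594) in DS and 30 reads (1210 RPM, 816 to 1728) in CK. The intervals of the 3 libraries overlapped over most of their length. TIR1 ranked 77 among 6078 listed pairs in RW, 92 among 5854 in DS and 94 among 4742 in CK. For each TIR1 read there were 48.7 AFB2 reads in RW, 24.4 in DS and 66.3 in CK.

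**Figure D1:**
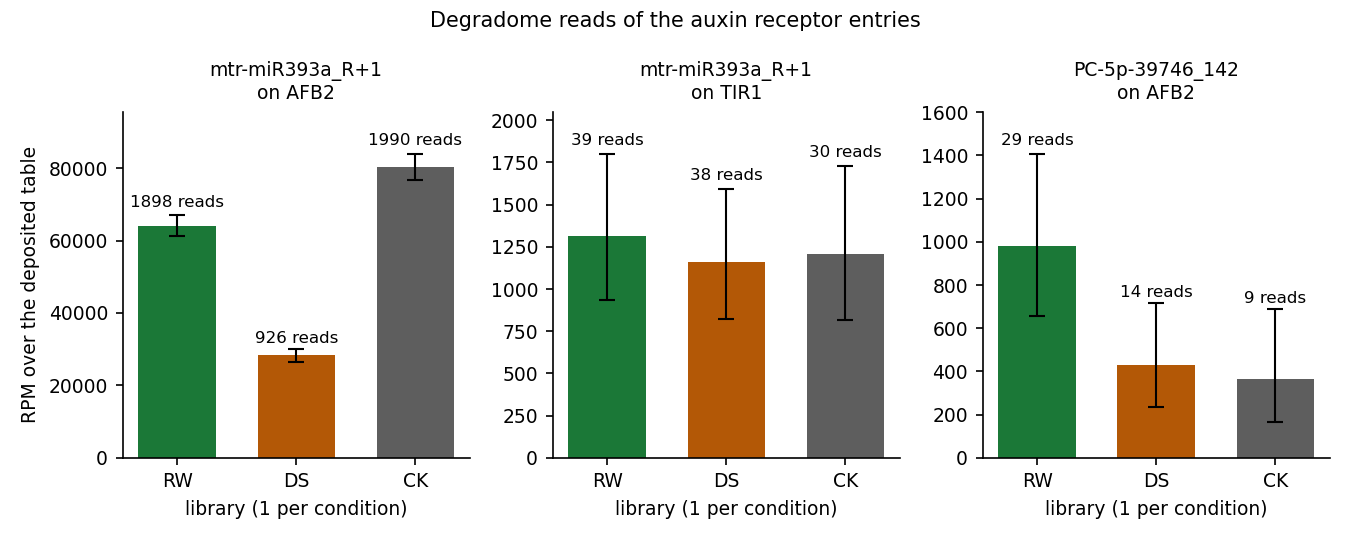
RPM over the deposited table (vertical axes, each from 0 and on its own scale) of 3 entries of the auxin receptors in the RW, DS and CK libraries, with exact Poisson 95% intervals and the reads above each bar. The miR393 entry of AFB2 is lowest in DS (926 reads), that of TIR1 stays between 30 and 39 reads, and PC-5p-39746_142 on AFB2 is highest in RW (29 reads).

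Together the miR393 reads of both receptors made up 6.54% (6.26 to 6.83, Clopper-Pearson) of the table in RW, 2.95% (2.77 to 3.14) in DS and 8.15% (7.81 to 8.50) in CK. Nearly all of this was AFB2. TIR1 held 2.01% (1.44 to 2.74) of the receptors' miR393 reads in RW, 3.94% (2.80 to 5.37) in DS and 1.49% (1.004 to 2.11) in CK.

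The first comparison, DS against CK, asked how the receptor reads differed after drought. miR393 on AFB2 was lower in DS, at 0.353 times its CK value (0.326 to 0.381), which is 2.84-fold lower (two-sided exact conditional binomial test, Benjamini-Hochberg adjusted p = 5.27e-162). In this comparison 9.30% of the 892 pairs with at least 10 reads were called lower. The direction and the call held under each of 4 other scalings, with ratios of 0.334 to 0.512. TIR1 stood at 0.960 times CK (0.579 to 1.60, adjusted p = 0.995 by the same exact test), an interval that reaches well to either side of 1. The side of 1 on which TIR1 lay changed with the scaling, with 1.05 by the median of ratios, 1.27 without scaling and 1.39 by mapped reads, none of them past the test.

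The second comparison, RW against DS, asked what the reads were like 2 days after rewatering. miR393 on AFB2 was 2.26 times as high in RW as in DS (2.09 to 2.45, adjusted p = 2.82e-96, exact test), where 9.31% of 1020 pairs were called higher. Other scalings gave 2.05 to 2.40, all past the test. TIR1 stood at 1.13 (0.706 to 1.82, adjusted p = 0.819, exact test), and its ratio lay between 1.03 and 1.20 under the other scalings.

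The third comparison set rewatered plants (RW) against plants kept watered throughout (CK). On the deposited scale miR393 on AFB2 was lower in RW, at 0.798 times CK (0.749 to 0.851, adjusted p = 1.26e-10, exact test), and 7.49% of 855 pairs were called lower. This result turned with the scaling. By the mapped reads of the libraries AFB2 was higher in RW, at 1.23 (1.15 to 1.31, adjusted p = 6.66e-09, exact test), and without scaling it stood at 0.954 (0.895 to 1.02, adjusted p = 0.391, exact test). Mapped reads also set the median log2 ratio of all pairs to 0.73, against 0.11 by table totals. A scaling moves every ratio of a comparison by the same factor. The place of AFB2, below the median pair, could therefore not change with it and is no check of the direction. TIR1 stood at 1.09 (0.659 to 1.81, adjusted p = 0.954, exact test) and at up to 1.68 (1.01 to 2.79, adjusted p = 0.115, exact test) by mapped reads.

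**Figure D2:**
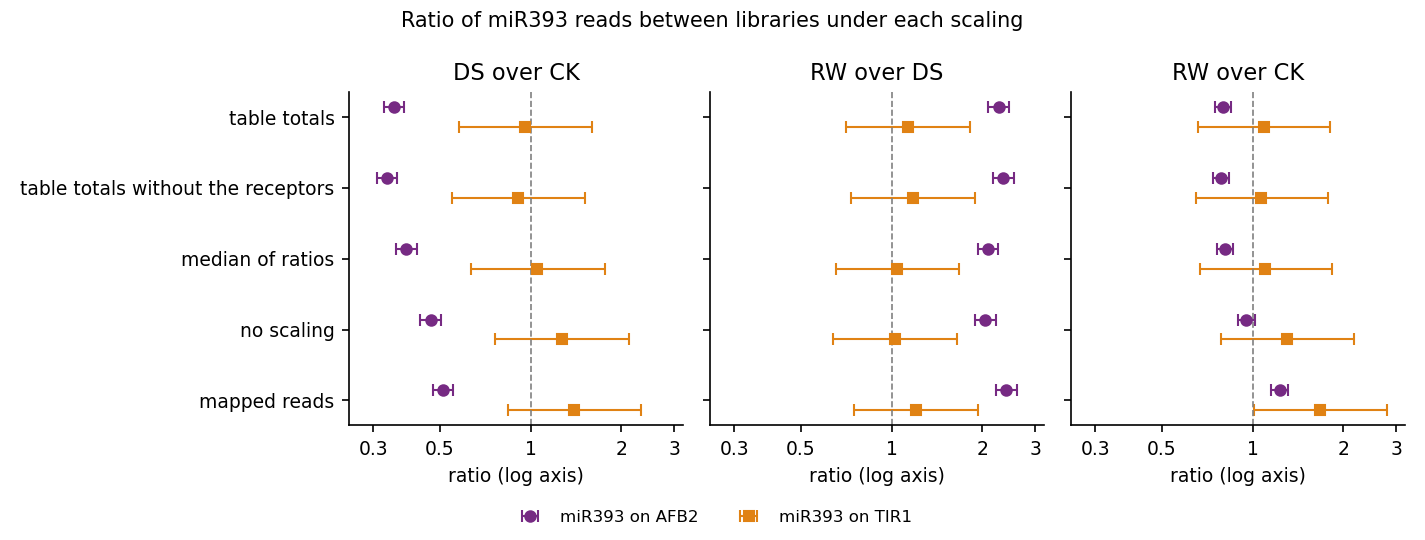
Ratio between libraries (horizontal axes, log scale, with exact 95% intervals) of the miR393 reads on AFB2 (circles) and TIR1 (squares) under 5 scalings, in 1 panel per comparison. AFB2 stays below 1 in DS over CK and above 1 in RW over DS under each scaling, and in RW over CK it runs between 0.785 and 1.23.

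Among deep pairs AFB2 lay toward the low end in DS against CK, toward the high end in RW against DS and nearer the middle in RW against CK. Of 62 pairs with at least 100 reads over DS and CK, 10 had a lower ratio than AFB2 and 51 a higher one. The lowest was miR5559 on SEOB, which encodes a sieve element occlusion protein of the phloem, with 3 reads in DS and 139 in CK. Of 64 such pairs in RW against DS, 5 lay above AFB2, led by miR164 on NAC021, a NAC transcription factor, with 112 reads in RW and 15 in DS. Of 59 such pairs in RW against CK, 24 lay below AFB2 and 34 above it.

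**Figure D3:**
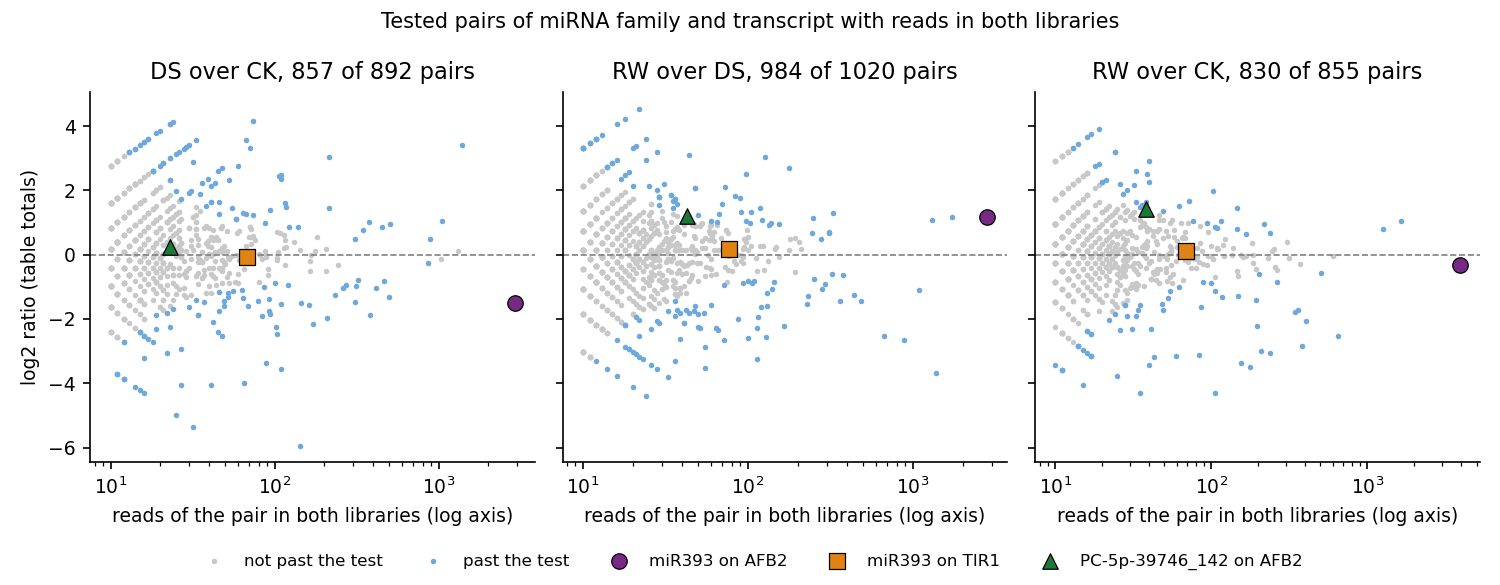
Log2 ratio by table totals (vertical axis) against the reads of a pair in both libraries (horizontal axis, log scale) for the tested pairs with reads in both libraries, grey where not past the exact test and blue where past it, with the receptor pairs as large symbols. miR393 on AFB2 is the pair farthest right in each panel, and TIR1 lies close to 0 in all 3.

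Whether AFB2 and TIR1 moved alike was tested on their reads within the same libraries, which no scaling can change. AFB2 relative to TIR1 was 0.367 times as high in DS as in CK (0.218 to 0.613, two-sided Fisher exact test, p = 6.01e-05, adjusted p = 0.000360 over 18 such comparisons). It was 2.00 times as high in RW as in DS (1.23 to 3.23, Fisher exact adjusted p = 0.00700). Between RW and CK it was 0.734 (0.438 to 1.22, Fisher exact adjusted p = 0.312), so that with 39 and 30 TIR1 reads a shift between the receptors was not detectable at this depth. The 2 receptors thus differed from each other in both comparisons that involve the DS library.

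The other entry of AFB2 belonged to PC-5p-39746_142, one of the small RNAs that the authors predicted and numbered themselves. It had 29 reads (979 RPM) in RW, 14 reads (428 RPM) in DS and 9 reads (363 RPM) in CK. RW was the high library here, but the counting intervals of all 3 libraries overlapped. In DS against CK the ratio was 1.18 (0.475 to 3.09, adjusted p = 0.936, exact test). In RW against DS it was 2.29 (1.17 to 4.69), just past the test (adjusted p = 0.0491, exact test), and this call was lost without scaling (2.07, adjusted p = 0.123) and by the median of ratios (2.11, adjusted p = 0.0868). In RW against CK it was 2.70 (1.24 to 6.48, adjusted p = 0.0534, exact test), and it passed the test by mapped reads (4.15, adjusted p = 0.000691) and without scaling (3.22, adjusted p = 0.0173).

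On AFB2, therefore, the miR393 entry and the PC entry could be compared within 1 transcript. miR393 relative to PC-5p-39746_142 was 0.299 times as high in DS as in CK (0.114 to 0.745, Fisher exact adjusted p = 0.0111) and 0.296 times as high in RW as in CK (0.123 to 0.645, Fisher exact adjusted p = 0.00261). In RW against DS the value was 0.989 (0.481 to 1.94, Fisher exact adjusted p = 1). The PC entry made up 1.50% (1.01 to 2.15) of the AFB2 reads in RW, 1.49% (0.817 to 2.49) in DS and 0.450% (0.206 to 0.853) in CK. The DS and CK values rest on 14 and 9 reads. Positions of the cuts were not used here, so whether the entries mark different sites on AFB2 was not tested.

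PC-5p-39746_142 was not tied to AFB2 alone. It was listed on 115 transcripts, of which 17 had 10 reads or more over the 3 libraries. Its deepest entry was on RCA2, the chloroplast activase of Rubisco, which had more reads in DS than in CK (ratio 2.08, adjusted p = 1.01e-25, exact test) and fewer in RW than in DS (0.471, adjusted p = 2.98e-30, exact test).

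The remaining entries of TIR1 were too shallow to test. gma-miR171c-3p on TRINITY_DN21628_c1_g1, the transcript that also carried the miR393 reads, had 0 reads in RW, 2 in DS and 1 in CK. The exact interval of a count of 0 in RW reaches 125 RPM, and the floor of 3 reads used below is 101 RPM in RW. Both lie above the values of both other libraries. vvi-miR2111-5p on TRINITY_DN25276_c1_g1 had 2 reads in RW, 1 in DS and 1 in CK, and no entry of miR393 was listed on this second TIR1 transcript. gma-miR171c-3p was listed on 23 transcripts in all, 2 of them with 10 reads or more over the 3 libraries, and vvi-miR2111-5p on 32, of which 4 had as many. miR171 is known for cutting SCARECROW-like transcription factors, and miR2111 for a kelch-repeat F-box transcript in the control of nodulation.

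When all small RNAs of a transcript were summed, AFB2 had 1927 reads in RW, 940 in DS and 1999 in CK, and TIR1 (TRINITY_DN21628_c1_g1) had 39, 40 and 31. The ratios of AFB2 were 0.356 in DS against CK, 2.26 in RW against DS and 0.807 in RW against CK, each past the exact test. TIR1 passed it in none, with ratios of 0.978, 1.08 and 1.05.

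mtr-miR393a_R+1 had few other partners. It was listed on 6 transcripts with 1938 reads in RW, 967 in DS and 2025 in CK, and AFB2 held 97.9% (97.2 to 98.5) of these in RW, 95.8% (94.3 to 96.9) in DS and 98.3% (97.6 to 98.8) in CK. Beyond the receptors, WAKL14, a wall-associated receptor-like kinase, had 0, 1 and 4 reads in RW, DS and CK. An F-box transcript under the symbol At1g67340 had 1, 0 and 1, and PLP6 and lip3 had a single read each, in DS. These 4 were shallow in all libraries.

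Entries of the opposite arm of the miR393 hairpins, mtr-MIR393b-p3 and gma-MIR393e-p3_1ss16CA, were spread over many transcripts and on neither receptor. Over both arms miR393 was listed on 152 transcripts other than the receptors, with 308 reads in RW, 297 in DS and 184 in CK in all, and 24 of them had 10 reads or more over the 3 libraries. The deepest was HDR1, annotated as a putative interactor of an Snf1-related kinase, with 27 reads in RW, 26 in DS and 23 in CK. The others were a kinase (At1g01540), a calreticulin, GLR2.9, APXT, SAMT, UGD1, PTAC12, GLUTRBP, CYCT1-3, At1g60420, ATO, PPC4, PGAAIR, DPE2, syf2, PIF1, AKR2A, a DOS2 protein, the NCL1 exchanger and 4 transcripts of unknown function. Of those with enough reads to test, 0 of 10 were called in DS against CK and 0 of 14 in RW against DS, where 21.6% of 892 and 19.0% of 1020 pairs were called in either direction. In RW against CK 1 of 14 was called higher, a hypothetical protein (TRINITY_DN25938_c1_g2) with 18 reads in RW and 1 in CK, where 7.37% of 855 pairs were called higher.

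Pairs whose reads were divided over the libraries in the way most like AFB2 were sought among the 212 pairs with at least 50 reads, by the Euclidean distance between the shares of the RPM sum that fell to RW, DS and CK. AFB2 had 37.1% of its RPM sum in RW, 16.4% in DS and 46.5% in CK. The nearest was miR159 on GAM1 (annotated as MYB65, a GAMYB-like factor of gibberellin signalling), at a distance of 0.0105, with 46 reads in RW, 21 in DS and 48 in CK. Next came miR482 on CDC48, a chaperone-like ATPase (0.0282), miR2275 on a chloroplast ribonucleoprotein (0.0395), miR2592 on CP12-2 of the Calvin cycle (0.0429) and miR1509 on At5g07830 (0.0477). TIR1, with 35.7% in RW, 31.5% in DS and 32.8% in CK, was most like miR5213 on a TMV resistance protein N (0.00630), miR5205 on CPK32, a calcium-dependent kinase (0.0141), miR1509 on a hypothetical protein (0.0170), miR169 on RH45, an RNA helicase (0.0236), and miR171 on SCL6, a SCARECROW-like factor (0.0245). Likeness over 3 libraries is a description, with no test.

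Reads on the rest of the auxin pathway were matched by symbol and annotation and summed per transcript, which gave 60 transcripts beyond the receptors. These include 5 transcripts of other F-box proteins, such as MAX2A, that are not of the auxin pathway. They were 1 of those tested in DS against CK, 1 in RW against DS and 3 in RW against CK. The transport list took any transcript with an ABCB symbol, whether or not it is known to carry auxin. Small RNAs of a transcript may list the same reads, so a sum may count a read again. In DS against CK 11 of the 60 had enough reads to test, with 0 higher and 1 lower, where 11.0% of 928 transcripts were called higher and 9.16% lower. Their median log2 ratio was -0.40, against 0.09 over all transcripts tested. In RW against DS 6 of 14 were higher and 0 lower (9.95% of 1045 transcripts higher, 8.42% lower), with a median of 0.68, against 0.07 over all. In RW against CK 4 of 14 were higher and 0 lower (7.05% of 893 transcripts higher, 6.27% lower), with a median of 0.41, against 0.11 over all.

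The substrates of the receptors, the Aux/IAA repressors, had 11 transcripts, of which 5 reached 10 reads. AUX28 (TRINITY_DN21274_c0_g2) had 104 reads in RW, 62 in DS and 39 in CK, and was higher in RW than in DS (1.85, 1.34 to 2.58, adjusted p = 0.00133, exact test) and higher in RW than in CK (2.23, 1.53 to 3.31, adjusted p = 0.000275, exact test). These reads sum the entries of 6 small RNAs, which may list the same reads, and this was not tested. If they do, the AUX28 intervals are too narrow. The entries were also not alike. In RW and CK miR1527 had 28 and 8 reads on it (ratio 2.93), and miR169 had 11 and 10 (0.921). In DS against CK this AUX28 transcript was not called by table totals (1.20, 0.794 to 1.85, adjusted p = 0.629, exact test). By mapped reads it was higher in DS (1.75, 1.15 to 2.68, adjusted p = 0.0270, exact test). A second AUX28 transcript (TRINITY_DN22520_c0_g3) had 111, 95 and 74 reads in RW, DS and CK and passed the test in no comparison. IAA14, IAA11 and IAA8 had 14 to 28 reads each over the 3 libraries and were not called either.

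The ARF transcription factors, some of which the Aux/IAA proteins hold back, had 12 transcripts matched by symbol or by the words auxin response factor. Of these 8 had 10 reads or more. A further transcript without a symbol (TRINITY_DN21946_c0_g3), annotated as a putative transcription factor of the ARF family, lay outside this match and was added after its values had been seen. Its entry was of miR160 and had 100 reads in RW, 79 in DS and 85 in CK. It was called in no comparison by table totals (0.704 in DS against CK, 1.40 in RW against DS and 0.985 in RW against CK, adjusted p = 0.103, 0.109 and 1, exact test), but by mapped reads it was higher in RW than in DS (1.48, adjusted p = 0.0465, exact test) and than in CK (1.52, adjusted p = 0.0244, exact test). Entries of miR160 were listed on ARF10, ARF17 and ARF18, ARFs mostly known as repressors, and those with miR167 on ARF6 and ARF8, known as activators. In RW against DS 5 of 7 tested ARF transcripts were higher, or 5 of 8 with the further one, where 9.95% of 1045 transcripts were called higher. ARF10 had 38 reads in RW, 10 in DS and 16 in CK and showed the highest ratio of RW to DS among those with reads in both (4.20, 2.05 to 9.45, adjusted p = 0.000167, exact test). ARF17 had 144, 99 and 107 reads in RW, DS and CK, with 1.61 times as much in RW as in DS (1.24 to 2.10, adjusted p = 0.00338, exact test).

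ARF18 had 155 reads in RW, 124 in DS and 82 in CK. It was higher in RW than in DS (1.38, adjusted p = 0.0482, exact test), a call lost without scaling and by the median of ratios, and higher in RW than in CK (1.58, 1.20 to 2.09, adjusted p = 0.0108, exact test). ARF6 (TRINITY_DN25424_c0_g4) had 80, 42 and 58 reads in RW, DS and CK. By table totals it was the only pathway transcript lower in DS than in CK (0.549, 0.360 to 0.830, adjusted p = 0.0215, exact test). That call was lost by mapped reads, without scaling and by the median of ratios. ARF6 was also 2.10 times as high in RW as in DS (1.43 to 3.13, adjusted p = 0.00120, exact test). These ARF6 reads sum the entries of 2 miR167 variants, which may list the same reads, and this was not tested. If they do, both ARF6 intervals are too narrow. ARF8 was 2 transcripts. TRINITY_DN23120_c0_g1 had 17 reads in RW, 0 in DS and 3 in CK, which is at least 6.26-fold higher in RW than in DS against a floor of 3 reads (adjusted p = 7.12e-05, exact test). The exact interval of this ratio starts lower, at 4.56. The transcript was also 4.74-fold higher in RW than in CK (1.37 to 25.3, adjusted p = 0.0472, exact test). TRINITY_DN23120_c0_g2 had 41, 24 and 24 reads and was not called.

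The subunits of the SCF ligase and its regulators together had 9 transcripts and few reads, 27 in RW, 19 in DS and 9 in CK over all of them. ECR1, CSN1, CSN7, RUB1 and CAND1 were among the regulators, which are not subunits. A transcript under the symbol SKP1A (TRINITY_DN14467_c0_g1, annotated as SKP1-like protein 1B), a type of subunit that links the F-box protein to the cullin, had 12 reads in RW, 8 in DS and 0 in CK, at least 3.35-fold higher in RW than in CK against a floor of 3 reads (adjusted p = 0.0113, exact test), with an exact interval that starts at 2.33. The other transcript of that symbol (TRINITY_DN18341_c0_g1) had 1 read, in CK. Other F-box proteins had 5 transcripts, among them MAX2A of strigolactone signalling and FBX6, and none was called. Auxin transport (10 transcripts), auxin conjugation and synthesis (6) and the SAUR genes (7) had no transcript with 10 reads. Their reads ran from 2 to 20 per list and library.

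**Figure D4:**
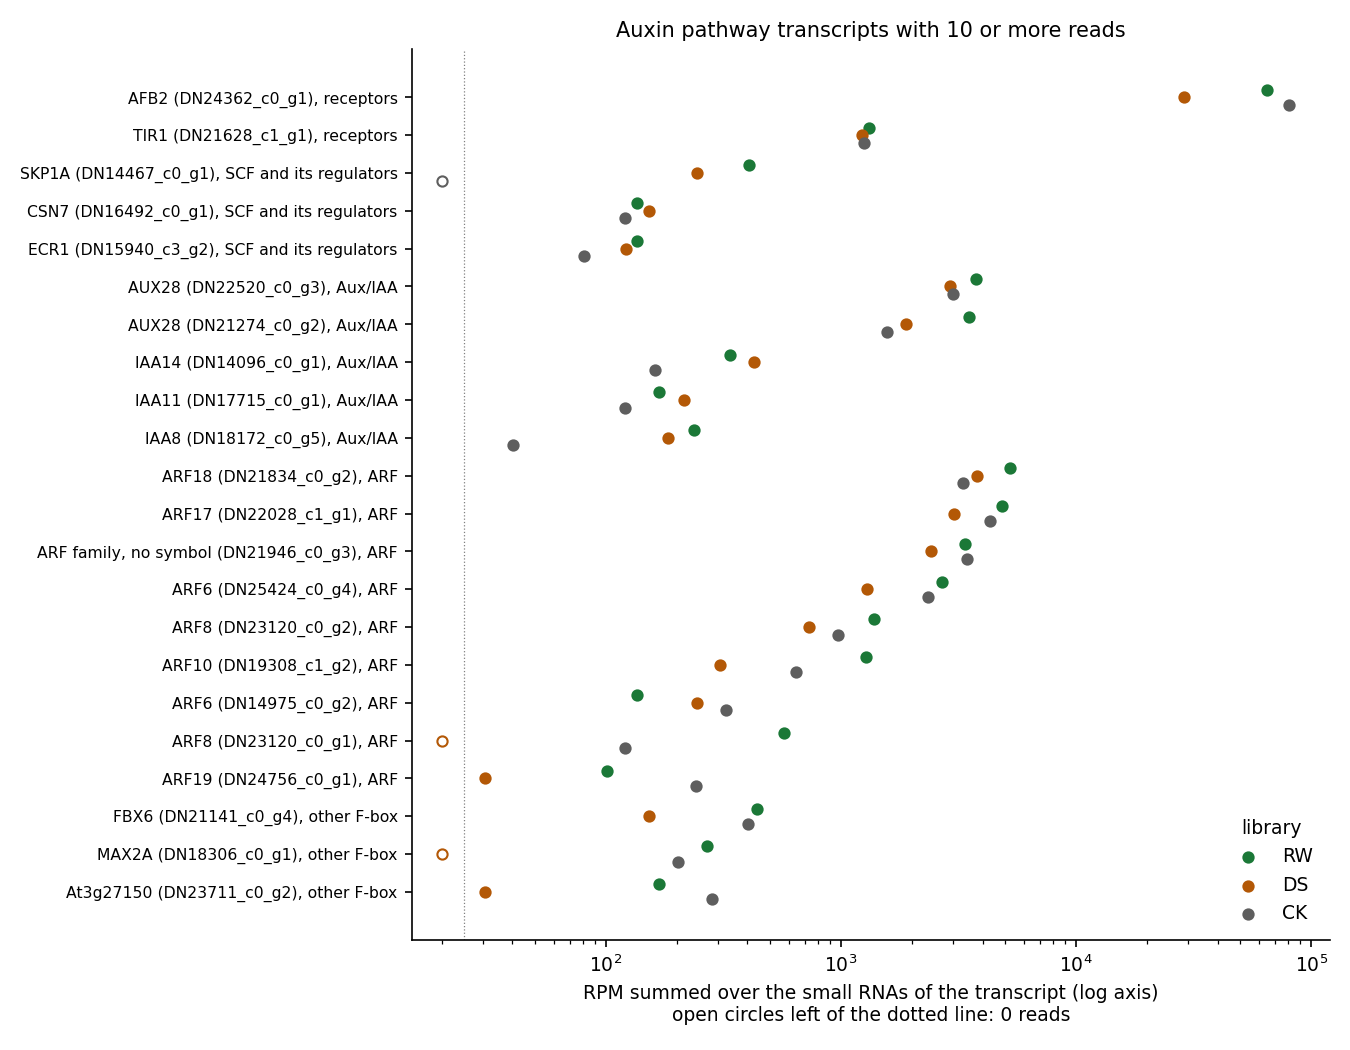
RPM summed over all small RNAs of a transcript (horizontal axis, log scale) in the RW, DS and CK libraries for auxin pathway and other F-box transcripts with at least 10 reads, by list, with open circles for 0 reads. AFB2 lies more than 10 times above every other transcript shown in RW and CK, and the transcripts next in depth are ARF18, ARF17, the AUX28 transcripts and the ARF family transcript without a symbol.

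The receptors were also set against the ARF pairs within the same libraries, again free of scaling. These comparisons were chosen after the data had been seen. The miR160 pairs of ARF10, ARF17 and ARF18 held 337 reads in RW, 232 in DS and 205 in CK, and the 4 miR167 pairs of ARF6 and ARF8 held 142, 74 and 93. The miR167 sums join entries of several miR167 variants on the same transcript, which may list the same reads. AFB2 relative to the miR160 pairs was 0.411 times as high in DS as in CK (0.334 to 0.507, Fisher exact adjusted p = 2.96e-16), 1.41 times as high in RW as in DS (1.17 to 1.70, Fisher exact adjusted p = 0.00148) and 0.580 times as high in RW as in CK (0.480 to 0.700, Fisher exact adjusted p = 4.64e-08). AFB2 relative to the miR167 pairs was 0.585 in DS against CK (0.422 to 0.813, Fisher exact adjusted p = 0.00301) and 0.625 in RW against CK (0.472 to 0.824, Fisher exact adjusted p = 0.00213). Between RW and DS it was 1.07 (0.786 to 1.44, Fisher exact adjusted p = 0.734). So AFB2 was low against both ARF groups in DS and in RW when either was set against CK. With the further ARF family transcript the miR160 pairs held 437 reads in RW, 311 in DS and 290 in CK, and AFB2 relative to them was 0.434 in DS against CK, 1.46 in RW against DS and 0.633 in RW against CK, each still past Fisher's exact test.

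TIR1 relative to the miR160 pairs did not pass the test in any comparison, with values of 1.12 (0.649 to 1.94) in DS against CK, 0.707 (0.426 to 1.17) in RW against DS and 0.791 (0.463 to 1.36) in RW against CK. Relative to the miR167 pairs TIR1 was lower in RW than in DS (0.535, 0.305 to 0.940, Fisher exact adjusted p = 0.0377). The values in DS against CK (1.59, 0.868 to 2.93) and in RW against CK (0.851, 0.478 to 1.53) did not pass.

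**Figure D5:**
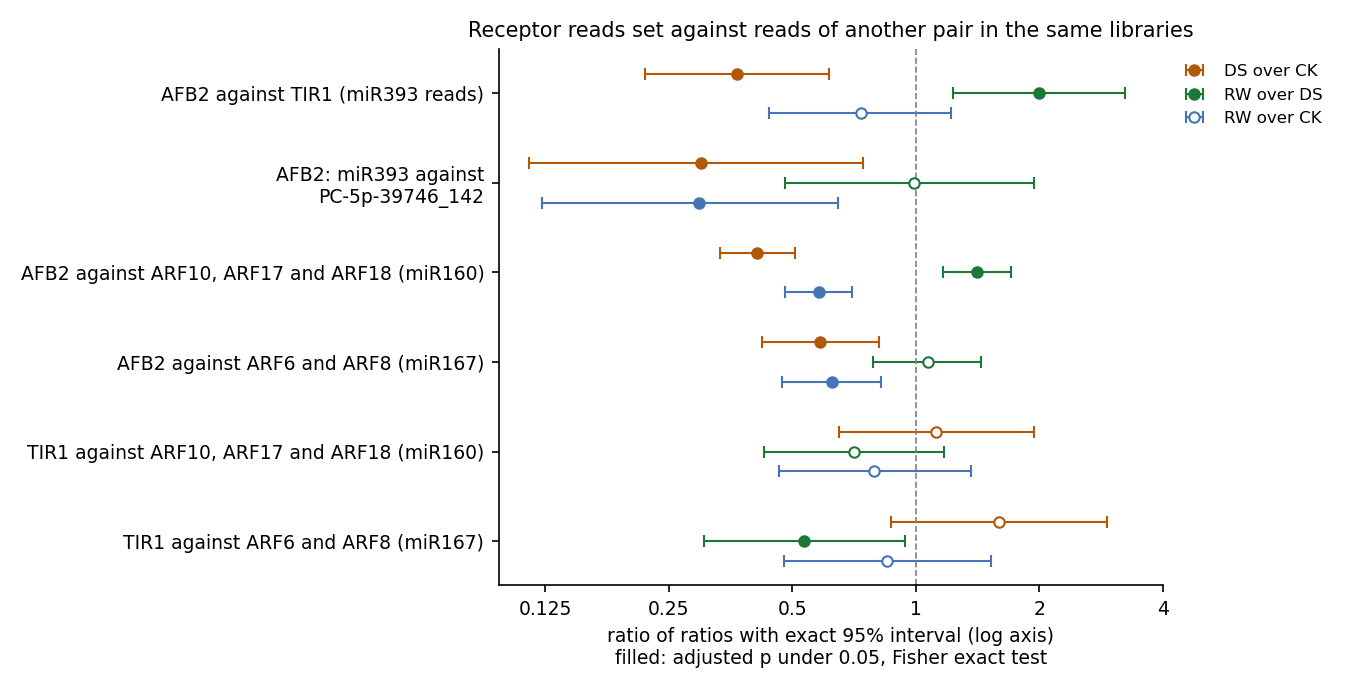
Ratio of ratios (horizontal axis, log scale, exact 95% intervals) of the receptor reads set against the reads of another pair in the same 2 libraries, for 6 sets and 3 comparisons, filled where the adjusted p of Fisher's exact test was under 0.05. AFB2 lies left of 1 in DS over CK in all 4 of its sets, while the TIR1 intervals include 1 in 5 of 6 cases.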

How the data were processed

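The authors built 1 degradome library per condition from leaf RNA, sequenced it on an Illumina HiSeq 2500 and searched for cleaved targets with ACGT101-DEG, which relies on CleaveLand 4, against their own Trinity assembly. The deposited values are RPM that add up to 1000000 over the table's entries in each library. Whole reads were recovered from the deposited RPM steps (100% of values whole, tolerance 0.01 of a read).

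Entries were summed by miRNA family and transcript. Small RNAs that point to the same cut may list the same reads. Such sums may then count a read again and give intervals and p-values that are too narrow. The miR393 values of the receptors are not sums of entries. Pairs with at least 10 reads in 2 libraries entered an exact conditional binomial test (two-sided) with the table totals as reference, with Benjamini-Hochberg adjustment over all pairs and a threshold of 0.05 (Python 3.11.15, SciPy 1.17.1). Median log2 ratios used a pseudocount of 1 read. Ratios of ratios used Fisher's exact test. The exact binomial test was checked on simulated reads with counting error only and a known scale of the libraries. With a fixed table total, as in the deposited values, large changes shift unchanged pairs. That setting was simulated too, but no limit was set for it to pass. Other scalings are given for this reason.

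Every receptor entry was named, other miR393 transcripts and the 5 most alike pairs by fixed limits of reads, and list members when called. Members and lists were chosen with earlier results of these data known, and 8 accidental list matches were dropped once their values were known. Cut positions, AllenScore and sequences were not used here.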

Additional observations from a re-analysis of the deposited data

How the results depend on the processing

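Scaling mattered most. miR393 on AFB2 kept its direction and call in DS against CK and in RW against DS under 4 other scalings and with all its small RNAs (0.334 to 0.512 and 2.05 to 2.40). In RW against CK (0.798 by table totals) it was 1.23 by mapped reads, with the direction turned, and 0.954, not past the test, without scaling. TIR1 in DS against CK (0.960) was 1.39, 1.27 and 1.05 by mapped reads, without scaling and by the median of ratios, and was called nowhere. PC-5p-39746_142 on AFB2, tried under other scalings after the data had been seen, lost its call in RW against DS without scaling (2.07) and by the median of ratios (2.11), and gained one in RW against CK by mapped reads (4.15) and without scaling (3.22). Auxin pathway members, counted with the other F-box transcripts, were also followed. In DS against CK 1 of 11 was called by table totals, lower (20.2% of all transcripts called). By mapped reads the count was 2, AUX28 and ARF18, both higher (30.8%). It was 0 by the median of ratios (21.0%) and 3 by a 2-fold rule (47.4%), 1 higher and 2 lower. Without scaling the count was 1, as by table totals, but the transcript was ARF18, higher, in place of ARF6, lower. By table totals without the receptors ARF6 (0.519) and ARF17 (0.663) were lower (adjusted p = 0.00902 and 0.0227, exact test). Called members in RW against CK numbered 4 of 14 (13.3% of all transcripts called), and 9 by mapped reads (25.3%). Mapped reads put the median log2 ratio of all transcripts at 0.73 there, against 0.11 by table totals. The ratios of AFB2 to TIR1 kept their calls with all small RNAs of each transcript, and the calls within and between the receptors were unchanged when adjusted over those 6 comparisons alone, a setting added after the data had been seen. Taking in the ARF family transcript, also added then, changed no call of a receptor against the miR160 pairs. Some alternatives, such as the deepest miR393 entry alone, could not move the receptors, which have 1 such entry each. Of the 61 alternative values that differed from the main one, 48 kept their direction and call, or a count within 1.5 times. No paired analysis was possible because each condition has 1 library, which also leaves no replicate to leave out. Depth limits TIR1, with 30 to 39 reads per library, and the PC entry, with 9 to 29.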
